A study of Homo sapiens with 24 samples.

Results

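Autophagy machinery genes were followed in 2 breast cancer cell lines that lack the oestrogen receptor (ER), after treatment with a CDK4/6 inhibitor, an ER degrader or both. The set held 37 genes, listed by symbol for their place in the initiation, conjugation and cargo receptor steps of autophagy, out of 59609 named genes in the count table, and the rule used no measured value. The cells were MDA-MB-231, a mesenchymal line grown in RPMI-1640 medium with 10% serum, and MDA-MB-453, a luminal line grown in DMEM with 10% serum; the labels give both the genotype wild-type and name no gene, each line stands for 1 cancer, and line and medium cannot be told apart in any comparison between them. Each line received DMSO (the drug solvent, used as control), 500 nM abemaciclib, 5 nM fulvestrant or the pair of drugs (the combination) for 5 days, which gave 8 groups of 3 libraries, 24 in all. RNA was read by 3′ sequencing, which counts 1 tag near the end of each transcript, and gene levels are given as CPM, a gene's counts relative to the scaled total of its library.

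Autophagy wraps cytoplasm in a double membrane, the autophagosome, and delivers it to the lysosome for breakdown. The ULK kinase complex starts the process, a class III PI3 kinase complex marks the membrane with lipid phosphate, ATG9A, ATG2 and the WIPI proteins bring in lipid, and a ubiquitin-like conjugation system attaches ATG8 family proteins (LC3 and GABARAP) to the growing membrane, where cargo receptors such as SQSTM1 (p62) tie in what is to be degraded. The process is regulated largely at the level of protein, and LC3 and SQSTM1 are themselves consumed by it, so an mRNA count measures neither protein amount nor autophagic flux. Abemaciclib inhibits the kinases that inactivate the retinoblastoma protein RB, and fulvestrant binds and degrades ER.

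Library totals ran from 2873558 to 4158762 counts. The lines carried their markers: VIM and CD44, mesenchymal genes, held no count in any of the 12 MDA-MB-453 libraries, FOXA1, a luminal factor, had 169 to 225 CPM there against 1.15 to 6.41 CPM in the other line, and ESR1, the ER gene, reached at most 5 counts in MDA-MB-231 cells and 8 in MDA-MB-453 cells. The proliferation gene MKI67 was lower under abemaciclib, with log2 fold changes of -1.45 (MDA-MB-231) and -7.28 (MDA-MB-453). The share of counts from the mitochondrial genome moved with abemaciclib, 8.83% ± 0.213 becoming 12.2% ± 1.05 in MDA-MB-231 cells and 15.2% ± 0.650 becoming 23.8% ± 1.91 in MDA-MB-453 cells (SD, n = 3). With mitochondrial genes removed, 14 members rather than 13 differed between abemaciclib and DMSO in MDA-MB-231, and 8 as before in MDA-MB-453. In bulk RNA, fewer cells that express a gene and less RNA per cell cannot be told apart.

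Counts were found in every library for 32 of the 37 members. Of the other 5, ULK2, a kinase paralogue of ULK1, had no count in any of the 12 MDA-MB-231 libraries. MAP1LC3A, an LC3 gene, was at 0 in 22 of 24 libraries with 1 count in each of the others, ATG9A, the lipid scramblase of the early membrane, was at 0 in 20, GABARAPL1 was at 0 in 5, and GABARAP, a further ATG8 protein, held 81 counts over all libraries. The last 300 bases of the ATG9A transcript in GENCODE v44 are shared with another gene on the same strand. Of the last 300 bases of GABARAP 0 are shared, although 48.2% of all its exon bases are shared with other genes. After a filter on low counts, 33 members were tested in each line, 32 of them in both. ULK2, ATG9A, MAP1LC3A and GABARAP were not tested in MDA-MB-231, and ATG9A, MAP1LC3A, GABARAP and GABARAPL1 were not tested in MDA-MB-453. All members together took 0.137% to 0.140% of counts in the DMSO libraries of MDA-MB-231 and 0.152% to 0.153% in its abemaciclib libraries. In MDA-MB-453 the shares were 0.127% to 0.131% under DMSO and 0.155% to 0.159% under abemaciclib, so the groups did not overlap in either line. SQSTM1 held much of the gain in MDA-MB-453, where it went from 0.0241% to 0.0249% of counts under DMSO up to 0.0405% to 0.0418% under abemaciclib, and the other members together from 0.103% to 0.106% up to 0.114% to 0.118%.

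**Figure D1:**
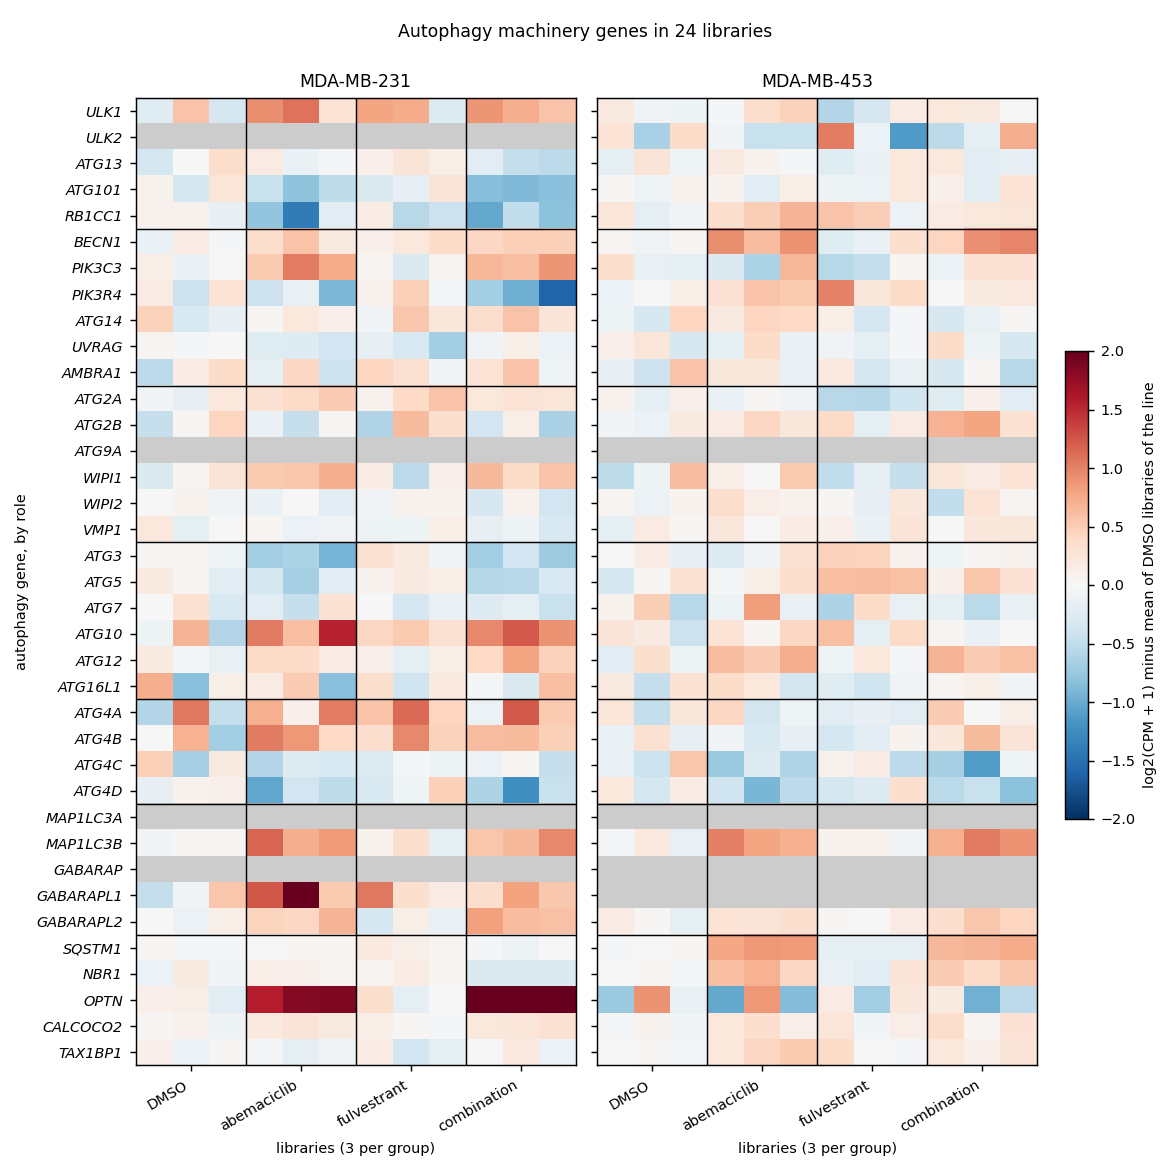
Each cell gives log2(CPM + 1) of a gene in 1 library minus the mean of the 3 DMSO libraries of its line, with genes in rows by role and libraries in columns by treatment. Grey rows were not tested in that line. OPTN and MAP1LC3B stand out in the abemaciclib and combination libraries of MDA-MB-231, and SQSTM1, BECN1 and MAP1LC3B in those of MDA-MB-453.

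The first question was how the machinery differs between the lines before drug. Under DMSO, MDA-MB-453 held more of the lipid transfer genes ATG2A, ATG2B and VMP1 and of the kinase ULK1, and MDA-MB-231 held more of the class III complex scaffold BECN1, the LC3 gene MAP1LC3B, the ubiquitin-like protein gene ATG12 and the receptors OPTN, NBR1 and SQSTM1. Within the same roles WIPI2, which recruits ATG16L1, was lower (-0.63 on the log2 scale, adjusted p = 0.000298) and the receptor CALCOCO2 higher (0.81, adjusted p = 7.41e-07) in MDA-MB-453. In all, 11 of 34 tested members were higher and 11 lower in MDA-MB-453 by edgeR's quasi-likelihood test at an adjusted p below 0.05. Across all 12750 genes tested, 69.8% differed, 34.3% higher and 35.6% lower in MDA-MB-453, so the members did not stand out from this background.

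ULK1 had 4.18, 8.08 and 3.84 CPM in the 3 DMSO libraries of MDA-MB-231 and 44.8, 37.6 and 36.8 CPM in those of MDA-MB-453. MDA-MB-231 lay far below, without overlap (log2 difference 2.87, SE 0.28, adjusted p = 9.12e-13). ULK2 had 5.63, 2.50 and 6.08 CPM in the DMSO libraries of MDA-MB-453. It summed to 49 counts over the 3 MDA-MB-453 libraries and 0 over the 3 of MDA-MB-231. If a count of 3 is taken as the limit for the MDA-MB-231 group, which covers counting error only, ULK2 was at least 16.1-fold higher in MDA-MB-453. The protease gene ATG4A, whose product trims ATG8 proteins, had 2.39, 9.52 and 2.66 CPM in MDA-MB-231 and 21.6, 12.8 and 21.4 CPM in MDA-MB-453. These groups did not overlap either, although 1 MDA-MB-231 library came close (log2 difference 1.92, SE 0.38, adjusted p = 1.66e-05).

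In the other direction, OPTN, which encodes the receptor optineurin used in clearing damaged mitochondria and bacteria, had 27.7, 28.0 and 22.1 CPM in MDA-MB-231 and 1.19, 5.84 and 2.32 CPM in MDA-MB-453. It was low in the latter, at 4 to 21 counts a library, and the lines did not overlap (log2 difference -3.02, SE 0.34, adjusted p = 5.95e-11). BECN1 had 75.2, 92.0 and 80.9 CPM in MDA-MB-231 and 38.6, 35.3 and 37.6 CPM in MDA-MB-453. All 3 values of the latter line lay below 40 CPM (log2 difference -1.15, SE 0.15, adjusted p = 4.62e-09). GABARAPL1, an ATG8 family gene, had 1.49, 2.31 and 4.13 CPM in MDA-MB-231 and 0 to 1.19 CPM in MDA-MB-453. It was close to the floor in MDA-MB-453 (log2 difference -2.37, SE 0.88, adjusted p = 0.0155) and passed in 8 of 12 alternative settings, with -1.54 (adjusted p = 0.197) at the least.

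Among the others, VMP1, a membrane protein needed for the early autophagosome, averaged 59.3 ± 8.48 CPM in MDA-MB-231 cells and 153 ± 17.9 CPM in MDA-MB-453 cells (SD, n = 3; log2 difference 1.37, adjusted p = 1.95e-13). MAP1LC3B averaged 45.1 ± 1.32 CPM and 20.5 ± 2.62 CPM (log2 difference -1.13, adjusted p = 1.89e-07). ATG2B and ATG16L1, which places LC3 conjugation on the membrane, differed by 1.48 and 1.18 on the log2 scale, and ATG7, the enzyme that activates ATG12 and LC3, by -1.07. The calls of ATG10, ATG4B, GABARAPL2, ATG5 and ATG13 were lost in 3 to 10 of 13 alternatives.

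**Figure D2:**
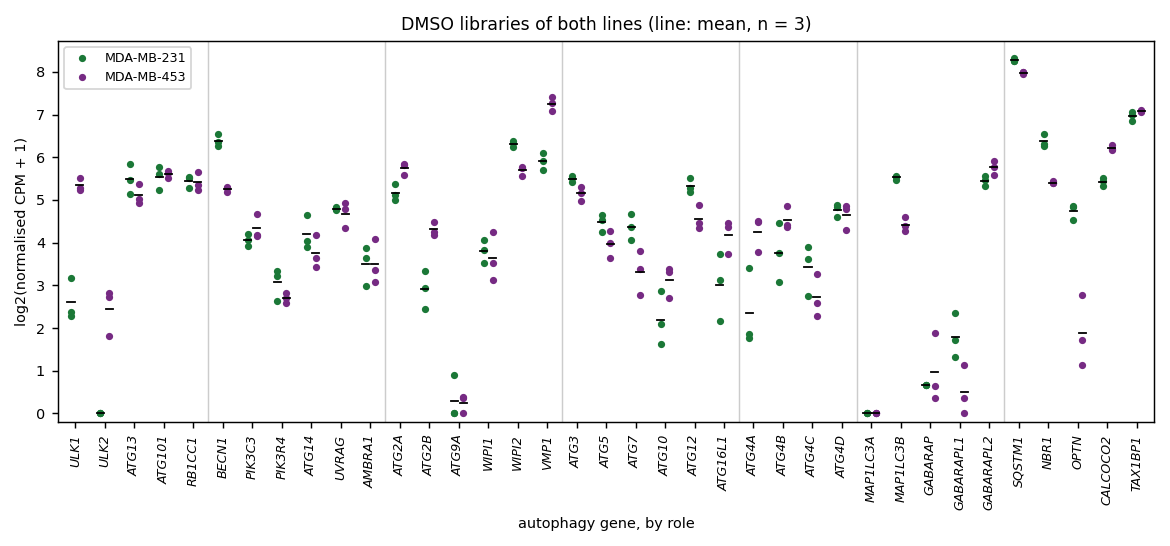
Dots give log2(CPM + 1) of each gene in the 3 DMSO libraries of MDA-MB-231 (green) and MDA-MB-453 (purple), and black lines give the mean. OPTN, BECN1 and MAP1LC3B sit higher in MDA-MB-231, ULK1, ATG4A and VMP1 sit higher in MDA-MB-453, and MAP1LC3A is at 0 in all 6.

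In MDA-MB-231, abemaciclib was next compared with DMSO to ask which steps of the machinery moved with CDK4/6 inhibition. OPTN rose most firmly, all 3 tested ATG8 genes rose, and so did the lipid kinase PIK3C3 with its scaffold BECN1. The conjugating enzyme ATG3, the ULK complex subunits RB1CC1 (FIP200) and ATG101, and the protease ATG4D fell. Of 33 tested members, 9 were higher and 4 lower (39.4%), beside 33.7% of all 11314 genes tested, 16.9% higher and 16.9% lower. The median log2 fold change of the members was 0.02, against a median of 0 over all genes to 2 decimals.

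By role, 2 of 4 tested ULK complex genes fell and none rose. In the class III PI3 kinase complex 2 of 6 rose and none fell, and among lipid transfer genes WIPI1, a reader of the lipid phosphate, was the only 1 of 5 called. In the conjugation system ATG10 rose and ATG3 fell out of 6 genes, and among the 4 ATG4 proteases ATG4B rose and ATG4D fell. OPTN was the only cargo receptor of 5 called. SQSTM1, NBR1, CALCOCO2 and TAX1BP1 gave log2 fold changes between -0.10 and 0.21.

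OPTN had 27.7, 28.0 and 22.1 CPM under DMSO in MDA-MB-231, and 78.5, 94.6 and 96.6 CPM under abemaciclib. Every abemaciclib library lay above every DMSO library, by a factor of 3.47 on the fitted means (log2 fold change 1.79, SE 0.16, adjusted p = 1.87e-12). MAP1LC3B, which encodes the LC3 protein used as the standard autophagosome marker, had 43.6, 45.6 and 46.0 CPM under DMSO and 103, 75.0 and 81.7 CPM under abemaciclib. The groups did not overlap, and the DMSO libraries were far closer together than the treated ones (log2 fold change 0.94, SE 0.15, adjusted p = 3.59e-06). The near-identical paralogue MAP1LC3B2 held 1 to 26 counts a library, and reads of the pair cannot be told apart with certainty.

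PIK3C3, the catalytic subunit that makes the lipid phosphate, had 17.3, 14.1 and 15.6 CPM under DMSO and 22.9, 32.7 and 27.0 CPM under abemaciclib. All 3 treated libraries were above the controls (log2 fold change 0.81, SE 0.22, adjusted p = 0.00322). ATG4B, the most active LC3 protease, had 12.5, 21.1 and 7.38 CPM against 26.8, 23.8 and 16.8 CPM. Here the groups overlapped, and the call (log2 fold change 0.72, SE 0.27, adjusted p = 0.035) was lost in 5 of 13 alternative settings. Its log2 fold change was 0.43 (adjusted p = 0.259) without DMSO replicate 3 and 1.17 without DMSO replicate 2. WIPI1 had 10.4, 13.3 and 15.6 CPM against 19.0, 19.3 and 22.2 CPM. It did not overlap, but it passed narrowly (log2 fold change 0.62, SE 0.25, adjusted p = 0.049), and 8 of 13 alternatives lost it, with 0.48 (adjusted p = 0.191) without DMSO replicate 1 at the least.

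The remaining higher calls were GABARAPL2, BECN1, GABARAPL1 and ATG10. GABARAPL2, an ATG8 protein, averaged 42.9 ± 3.56 CPM under DMSO and 61.6 ± 6.53 CPM under abemaciclib (SD, n = 3), without overlap (log2 fold change 0.53, adjusted p = 0.00598). BECN1 rose by 0.37 on the log2 scale (adjusted p = 0.0167), a call lost without abemaciclib replicate 2 (0.27, adjusted p = 0.142), DMSO replicate 1 (adjusted p = 0.0965) or DMSO replicate 3 (adjusted p = 0.0507). GABARAPL1 and ATG10, the enzyme that conjugates ATG12, stayed under 13.2 CPM in all DMSO and abemaciclib libraries, and their groups overlapped. Their log2 fold changes were 1.60 (SE 0.52, adjusted p = 0.0139) and 1.18 (SE 0.42, adjusted p = 0.0258). Without abemaciclib replicate 2 that of GABARAPL1 was 1.08 (adjusted p = 0.179) and without DMSO replicate 1 it was 1.32 (adjusted p = 0.0722), and without abemaciclib replicate 3 that of ATG10 was 0.87 (adjusted p = 0.174). The ATG10 call was also lost without DMSO replicate 1 (1.07, adjusted p = 0.081) or DMSO replicate 3 (0.89, adjusted p = 0.136).

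ATG3, the enzyme that transfers ATG8 proteins onto membrane lipid, had 44.7, 45.9 and 41.6 CPM under DMSO and 27.1, 28.0 and 22.7 CPM under abemaciclib. The groups lay clearly apart (log2 fold change -0.76, SE 0.17, adjusted p = 0.000595). RB1CC1, the scaffold of the ULK complex, had 45.0, 44.7 and 37.8 CPM against 24.0, 15.5 and 36.6 CPM. The highest treated library lay just under the lowest control (log2 fold change -0.73, SE 0.22, adjusted p = 0.00775), and without abemaciclib replicate 2 the log2 fold change was -0.48 (adjusted p = 0.104). ATG101, which stabilises ATG13 in the same complex, had 48.0, 36.4 and 53.7 CPM against 33.2, 25.6 and 31.5 CPM. All treated libraries were below the controls (log2 fold change -0.61, SE 0.18, adjusted p = 0.00811), a call lost without DMSO replicate 3 (-0.47, adjusted p = 0.0795) or abemaciclib replicate 2 (-0.50, adjusted p = 0.057).

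ATG4D had 23.3, 27.7 and 28.3 CPM under DMSO and 12.3, 19.9 and 18.2 CPM with abemaciclib in MDA-MB-231. In MDA-MB-453 it had 27.9, 18.6 and 26.6 CPM against 17.9, 12.3 and 16.4 CPM. It fell in both lines without overlap, by 0.65 on the log2 scale in each (adjusted p = 0.0318 and 0.0328), and DESeq2 called neither. The weakest values were -0.47 (adjusted p = 0.186) without abemaciclib replicate 1 of MDA-MB-231 and -0.51 (adjusted p = 0.147) without abemaciclib replicate 2 of MDA-MB-453. The last 300 bases of ATG4D are shared with KRI1 on the opposite strand; KRI1 gave a log2 fold change of -0.49 (adjusted p = 0.0283) in MDA-MB-231 cells and -0.30 (adjusted p = 0.336) in MDA-MB-453 cells. Since the strand setting of the counting is not given in the sources used here, reads of such a pair cannot be told apart. The same holds for BECN1 with CNTD1, WIPI1 with ARSG, ATG7 with VGLL4 and SQSTM1 with MRNIP, and for 259 of the last 300 bases of ATG101. Of these partners VGLL4 rose in MDA-MB-231 by 1.06 on the log2 scale (adjusted p = 3.71e-05), where ATG7 gave -0.11 (adjusted p = 0.758), ARSG rose by 0.89 (adjusted p = 0.00036) in MDA-MB-453, and CNTD1 went against its neighbour in MDA-MB-453, where it fell by 2.81 on the log2 scale (adjusted p = 1.95e-05) at 0 to 47 counts a library, and MRNIP held 3 to 45 counts.

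**Figure D3:**
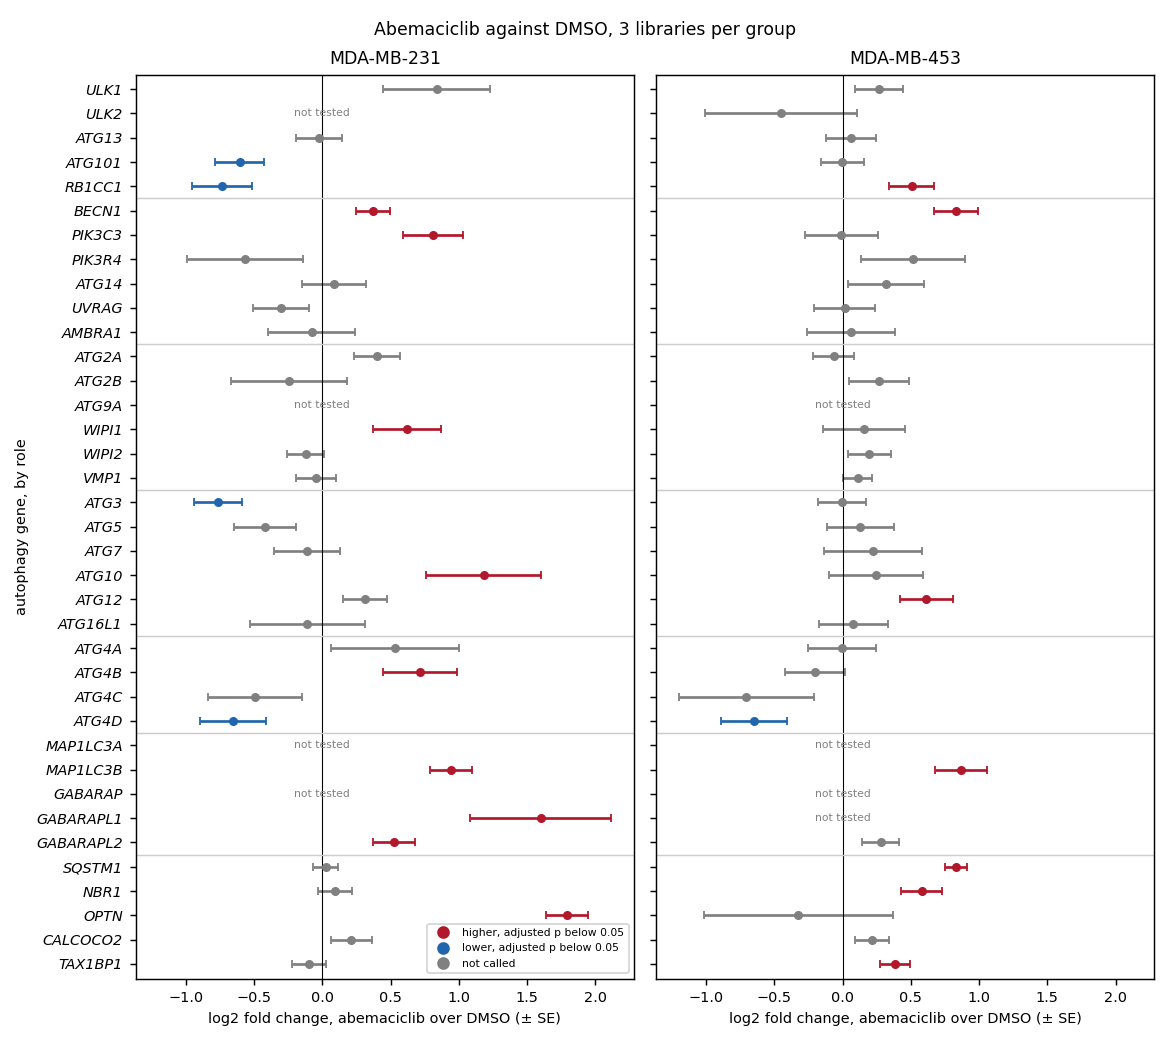
Points give the log2 fold change of each member between abemaciclib and DMSO, with bars of 1 SE, in MDA-MB-231 (left) and MDA-MB-453 (right). Red and blue points passed an adjusted p of 0.05; OPTN at 1.79 lies farthest right among members with small error in MDA-MB-231, while in MDA-MB-453 its bar spans 0.

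In MDA-MB-453 the same comparison called 3 cargo receptors, SQSTM1, NBR1 and TAX1BP1, which rose together with BECN1, MAP1LC3B, ATG12 and RB1CC1, and ATG4D fell. Of 33 tested members, 7 were higher and 1 lower (24.2%), beside 36.0% of all 11080 genes tested, 16.6% higher and 19.4% lower. The median log2 fold change of the members was 0.16, against 0 over all genes to 2 decimals. None of 5 lipid transfer genes was called, and 1 gene each was called in the class III complex, the conjugation system and the ULK complex.

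SQSTM1, the receptor p62 that binds ubiquitinated cargo, had 244, 253 and 256 CPM under DMSO and 429, 461 and 454 CPM under abemaciclib in MDA-MB-453. The groups lay far apart at more than 800 counts a library (log2 fold change 0.83, SE 0.08, adjusted p = 2.42e-11), a factor of 1.78. In MDA-MB-231 it had 317, 305 and 305 CPM against 310, 312 and 318 CPM. There the groups overlapped, and the 95% interval of the log2 fold change ran from -0.15 to 0.20.

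BECN1 had 38.6, 35.3 and 37.6 CPM under DMSO and 72.0, 57.2 and 70.0 CPM under abemaciclib in MDA-MB-453. All treated libraries lay above the controls (log2 fold change 0.83, SE 0.16, adjusted p = 5.08e-05). MAP1LC3B had 19.9, 23.4 and 18.2 CPM against 42.0, 36.1 and 34.1 CPM. The groups did not overlap (log2 fold change 0.86, SE 0.19, adjusted p = 0.000284), and MAP1LC3B and BECN1 were the members called higher in both lines. The share of all genes called higher in both lines was not counted. The BECN1 call in MDA-MB-231 was lost in 3 of 13 alternatives. The difference of the MAP1LC3B effect between the lines was -0.07 on the log2 scale, with a 95% interval from -0.54 to 0.40.

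ATG12, the protein joined to ATG5 to build the conjugating complex, had 19.3, 28.4 and 20.8 CPM under DMSO and 35.1, 32.5 and 37.8 CPM under abemaciclib in MDA-MB-453. It rose without overlap (log2 fold change 0.61, SE 0.19, adjusted p = 0.0106) and lost its call without DMSO replicate 1 (0.50, adjusted p = 0.0711) or DMSO replicate 3 (0.55, adjusted p = 0.0515). NBR1, a receptor that acts beside SQSTM1, had 40.9, 42.3 and 40.8 CPM against 62.9, 67.8 and 55.2 CPM. The treated libraries all lay higher (log2 fold change 0.58, SE 0.15, adjusted p = 0.00188). RB1CC1 and TAX1BP1, a ubiquitin-binding receptor, rose by 0.51 (SE 0.16, adjusted p = 0.0128) and 0.39 (SE 0.11, adjusted p = 0.00432) on the log2 scale. The RB1CC1 call was lost without abemaciclib replicate 3 (0.41, adjusted p = 0.0824), DMSO replicate 2 (0.41, adjusted p = 0.0863) or DMSO replicate 3 (0.47, adjusted p = 0.0517).

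**Figure D4:**
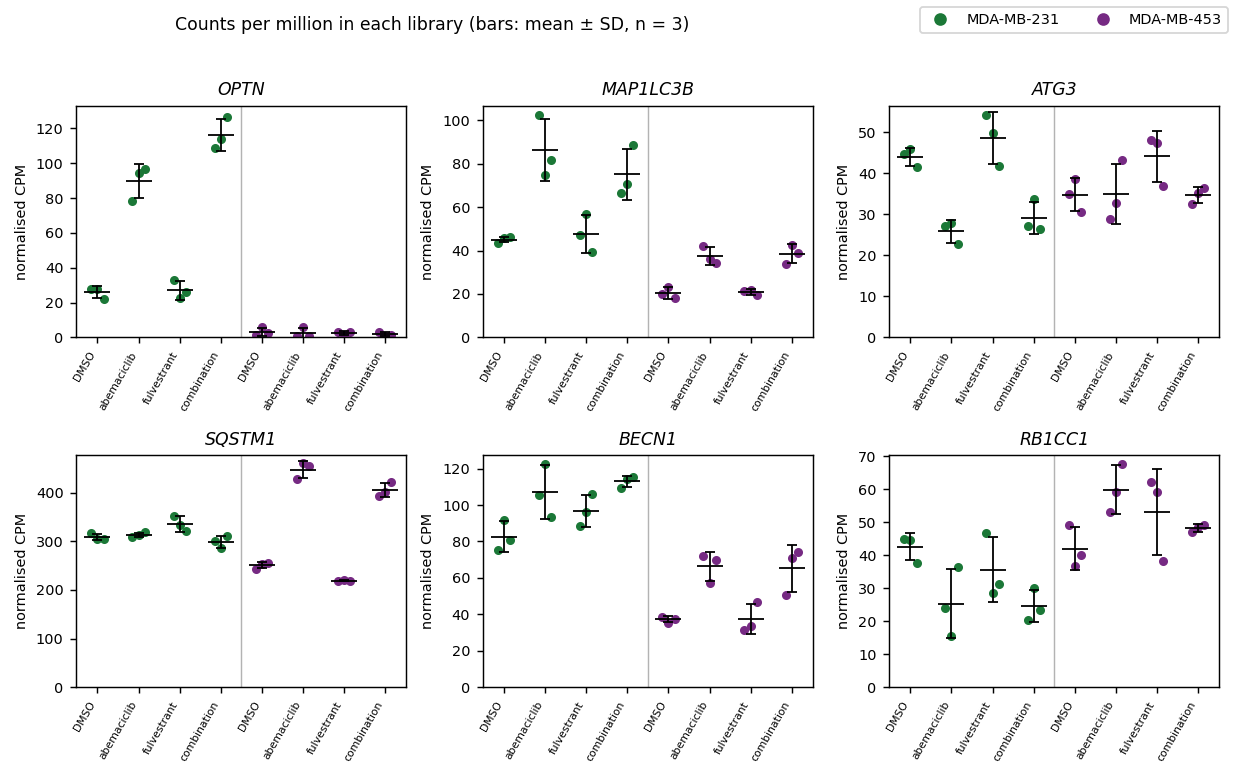
Dots give CPM of 6 genes in each library, by treatment, in MDA-MB-231 (green) and MDA-MB-453 (purple), and bars give mean ± SD (n = 3). OPTN separates the treated libraries in MDA-MB-231 and SQSTM1 in MDA-MB-453, while MAP1LC3B separates them in both.

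The combination against fulvestrant asks the same question in libraries other than those of the first comparison. Scaling and spread were estimated over all 12 libraries of a line, so the tests are not fully independent. In MDA-MB-231, OPTN, MAP1LC3B, GABARAPL2, PIK3C3 and WIPI1 were again higher and ATG3, ATG101 and ATG4D again lower, 8 members called in both comparisons. The WIPI1 call between combination and fulvestrant was lost in 6 of 13 alternatives, DESeq2 among them. Without fulvestrant replicate 2 its log2 fold change was 0.44 (adjusted p = 0.227). In MDA-MB-453, SQSTM1, MAP1LC3B, BECN1, ATG12 and NBR1 were higher in both, and none was lower in both. The share of all genes called in both comparisons was not counted, so these members have no background beside them. Of 33 tested members, 6 rose and 7 fell in MDA-MB-231 beside 36.1% of all genes (17.6% higher, 18.5% lower). In MDA-MB-453, 8 were higher and 0 lower beside 36.6% of all genes (17.2% higher, 19.4% lower), a count that was 5 higher and 1 lower when libraries were scaled by their totals. The fold change had the same sign in both comparisons for 24 of 33 members in MDA-MB-231 cells and 19 of 33 in MDA-MB-453 cells, and for 77.1% and 74.7% of all genes.

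OPTN had 33.0, 22.4 and 25.8 CPM under fulvestrant and 109, 114 and 127 CPM under the combination in MDA-MB-231. The groups lay apart by a factor of 4.31 (log2 fold change 2.11, SE 0.15, adjusted p = 6.51e-15). In MDA-MB-453 OPTN held from 3 to 21 counts in each DMSO, abemaciclib, fulvestrant and combination library, with no call in either comparison. MAP1LC3B rose by 0.66 (adjusted p = 0.000537) in MDA-MB-231 cells and by 0.89 (adjusted p = 0.000175) in MDA-MB-453 cells on the log2 scale, with no overlap in either line. Its partner GABARAPL2 rose by 0.81 (adjusted p = 3.22e-05) and 0.38 (adjusted p = 0.0207), the second lost in 5 of 13 alternatives.

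SQSTM1 had 219, 220 and 219 CPM under fulvestrant and 394, 403 and 421 CPM under the combination in MDA-MB-453. These groups were widely separated (log2 fold change 0.89, SE 0.08, adjusted p = 3.5e-12). BECN1 rose by 0.82 (SE 0.16, adjusted p = 5.78e-05), and NBR1 by 0.51 (SE 0.15, adjusted p = 0.00582). RB1CC1 did not repeat its rise in that line: it had 62.2, 59.1 and 38.2 CPM under fulvestrant and 47.0, 48.6 and 49.3 CPM under the combination, which overlapped (log2 fold change -0.14, SE 0.16, adjusted p = 0.526). In MDA-MB-231, ATG3 had 54.2, 49.8 and 41.8 CPM against 27.1, 33.7 and 26.6 CPM. It fell again without overlap (log2 fold change -0.73, SE 0.17, adjusted p = 0.000613).

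Members called in only 1 of these comparisons were named by the test and not by a difference between them, which was not tested. In MDA-MB-231, PIK3R4 (the VPS15 regulatory subunit), ATG13, ATG5 and NBR1 were lower and ATG12 was higher with fulvestrant present, with log2 fold changes of -1.47, -0.57, -0.62, -0.37 and 0.56. Their values without it were -0.57, -0.03, -0.42, 0.09 and 0.31. The ATG5 call was lost in 5 of 13 alternatives, that of NBR1 in 2 and that of ATG12 in 1. In MDA-MB-453, ATG2A, ATG4B and GABARAPL2 were higher with fulvestrant present (0.41, 0.56 and 0.38), and their values without it were -0.07, -0.20 and 0.28. The ATG2A and ATG4B calls were each lost in 6 of 13 alternatives, DESeq2 among them. The members called without fulvestrant alone were GABARAPL1, ATG4B, ATG10, BECN1 and RB1CC1 in MDA-MB-231, whose log2 fold changes with fulvestrant present were 0.02, -0.04, 0.72, 0.23 and -0.52. GABARAPL1 and ATG4B averaged 4.16 ± 1.80 and 19.8 ± 5.01 CPM under fulvestrant and 4.19 ± 0.851 and 19.2 ± 1.11 CPM under the combination (SD, n = 3), so their rises against DMSO were not seen there. In MDA-MB-453 they were RB1CC1, TAX1BP1 and ATG4D, at -0.14, 0.07 and -0.56 with fulvestrant present.

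**Figure D5:**
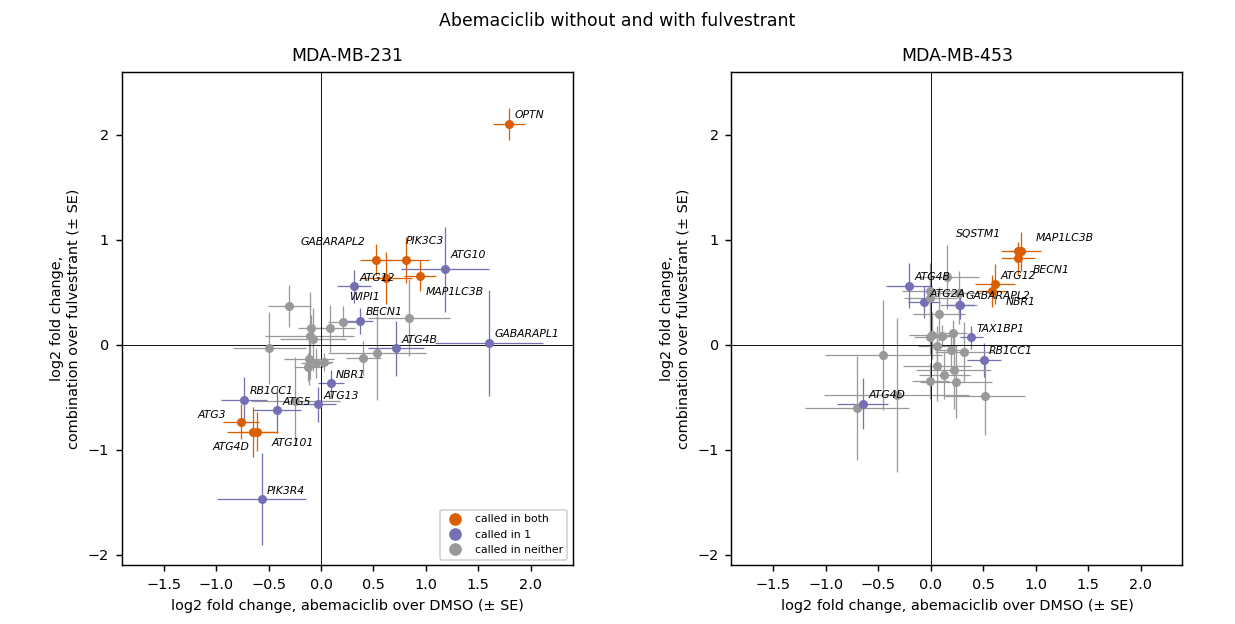
Each point is a member, with its log2 fold change between abemaciclib and DMSO on the horizontal axis and between combination and fulvestrant on the vertical axis (bars: SE), in MDA-MB-231 (left) and MDA-MB-453 (right). Members called in both, 8 and 5, lie at the upper right or lower left, with OPTN at 1.79 and 2.11 in MDA-MB-231.

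Set against DMSO, the combination gave 7 higher and 6 lower members in MDA-MB-231, beside 35.4% of all genes (17.0% higher, 18.3% lower), while in MDA-MB-453 there were 7 higher and 1 lower, beside 37.6% (17.6% higher, 20.0% lower). This comparison shares its DMSO libraries with the first. OPTN reached a log2 fold change of 2.17 (SE 0.15) in MDA-MB-231, ATG101 -0.90 (SE 0.18), and SQSTM1 0.71 (SE 0.08) in MDA-MB-453. ATG2B, a lipid transfer protein gene, was higher in MDA-MB-453 (0.64, SE 0.22, adjusted p = 0.0163) and lost its call in 4 of 13 alternatives, with 0.54 (adjusted p = 0.0916) without combination replicate 2.

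Fulvestrant on its own moved no member past the threshold in either line. In MDA-MB-231 edgeR called 0 members and 0% of all genes, and DESeq2 called 0 members. At an unadjusted p under 0.05 there was 1 member (ATG2A) of 33, beside 7.06% of all genes. In MDA-MB-453 edgeR called 0 members and 1.41% of all genes, and 5 members of 33 had an unadjusted p under 0.05, beside 13.6% of all genes. DESeq2 gave an adjusted p to 3 members there and called 0. The number of all genes called moved with single libraries, from 156 to 5 without fulvestrant replicate 2 and 786 without fulvestrant replicate 3 in MDA-MB-453, and from 0 to 205 without fulvestrant replicate 1 in MDA-MB-231. Among members, the smallest adjusted p by edgeR belonged to ATG2A in each line. It was 0.0814 for MDA-MB-453 cells, where ATG2A moved by -0.51 on the log2 scale, and 0.658 for MDA-MB-231 cells. The 95% interval of the log2 fold change lay within 1 of 0 for 28 of 33 members in MDA-MB-231 cells and 27 of 33 in MDA-MB-453 cells, and shifts inside these intervals were not detectable at this depth. Adding fulvestrant to abemaciclib likewise gave 0 members by edgeR, beside 0.0265% of all genes in MDA-MB-231 cells and 2.46% in MDA-MB-453 cells. At an unadjusted p under 0.05 there were 3 members in MDA-MB-231, beside 10.1% of all genes, and 1 in MDA-MB-453, beside 15.0%. DESeq2 called 0 members but gave an adjusted p to only 1 in MDA-MB-231 cells and 16 in MDA-MB-453 cells. Here too the number of all genes called moved with 1 library out, from 3 to 96 without abemaciclib replicate 3 in MDA-MB-231, and from 273 to 83 without combination replicate 2 or 518 without abemaciclib replicate 1 in MDA-MB-453.

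The share of all genes called in no treatment comparison was not counted. Of the 37 members 15 were called in none, 3 of which could be tested in neither line. They included ULK1, which had a log2 fold change under abemaciclib of 0.84 (adjusted p = 0.0935) in MDA-MB-231, or 1.26 (adjusted p = 0.0308) without DMSO replicate 2 and 1.06 (adjusted p = 0.0478) without abemaciclib replicate 3, and ATG4C, with -0.49 (adjusted p = 0.288) there and -0.71 (adjusted p = 0.284) in MDA-MB-453. AMBRA1, a BECN1 regulator, ATG14 and UVRAG, which define alternative class III complexes, WIPI2, VMP1, ATG7, ATG16L1, ATG4A and CALCOCO2 lay between -0.30 and 0.53 in both lines, the highest being ATG4A in MDA-MB-231, which gave 1.47 (adjusted p = 0.0368) without DMSO replicate 2. ULK2 gave -0.45 (SE 0.56) in MDA-MB-453.

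Whether the lines differed in their answer to abemaciclib was tested as a difference of effects in a fit of all 24 libraries. SQSTM1, RB1CC1, ATG3 and TAX1BP1 moved more positively in MDA-MB-453, and OPTN moved less. That made 4 higher and 1 lower of 34 tested members (14.7%), beside 20.7% of all genes, 7.72% higher and 13.0% lower. Scaling by library totals gave 3 higher and 2 lower. SQSTM1 differed by 0.81 (SE 0.12, adjusted p = 3.41e-07) and RB1CC1 by 1.25 (SE 0.29, adjusted p = 0.00124) on the log2 scale, and both passed in all 19 alternative settings. In MDA-MB-453, RB1CC1 had 49.2, 36.7 and 40.0 CPM under DMSO and 53.0, 59.0 and 67.6 CPM under abemaciclib, so it moved up there and down in MDA-MB-231. ATG3 differed by 0.77 (SE 0.25, adjusted p = 0.0208), having 35.0, 38.7 and 30.7 CPM under DMSO and 28.9, 32.8 and 43.2 CPM under abemaciclib in MDA-MB-453, which overlapped. The ATG3 difference was lost in 8 of 19 alternatives, with 0.52 (adjusted p = 0.17) without abemaciclib replicate 3 of MDA-MB-453. OPTN differed by -2.13 (SE 0.56, adjusted p = 0.00389), but without DMSO replicate 2 of MDA-MB-453 the difference was -1.29 (adjusted p = 0.216). In the latter line OPTN had 1.19, 5.84 and 2.32 CPM under DMSO and 0.803, 5.72 and 1.00 CPM under abemaciclib.

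Promoter sequence was set beside these changes because MiT/TFE factors such as TFEB, the known regulators of autophagy and lysosome genes, bind an E-box within a longer motif called CLEAR, and RB restrains E2F factors. RefSeq promoters (GRCh38.p14, from 250 bases before to 50 after a gene start) were found for 33 of 37 members, in 41 windows with alternative starts. RB1CC1, UVRAG, ATG4D and MAP1LC3A had no entry. The E-box CACGTG, read on both strands, occurred in 2 of 41 windows (ATG3 and ATG14), against 7.26% of all 35116 promoters. The palindrome TCACGTGA, the core of CLEAR, which contains the E-box, occurred in 1 (ATG3), against 0.98%. E2F motifs (TTTCCCGC, TTTCGCGC, TTTGCCGC or TTTGGCGC on either strand) occurred in 1 (ATG2A), against 3.31%. The window of ATG3, which fell in MDA-MB-231, is shown beside those of MAP1LC3B and OPTN, which rose, with the E-box and CLEAR core matches in capitals. It lies on the minus strand of chr3:112561913-112562212, MAP1LC3B on the plus strand of chr16:87392086-87392385 and OPTN on the plus strand of chr10:13099832-13100131.
ATG3: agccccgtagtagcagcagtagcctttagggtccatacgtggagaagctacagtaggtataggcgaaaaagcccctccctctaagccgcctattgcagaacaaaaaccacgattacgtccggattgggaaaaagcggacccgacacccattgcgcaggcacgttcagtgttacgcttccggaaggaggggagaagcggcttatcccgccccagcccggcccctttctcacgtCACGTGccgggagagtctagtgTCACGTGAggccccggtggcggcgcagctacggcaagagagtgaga
MAP1LC3B: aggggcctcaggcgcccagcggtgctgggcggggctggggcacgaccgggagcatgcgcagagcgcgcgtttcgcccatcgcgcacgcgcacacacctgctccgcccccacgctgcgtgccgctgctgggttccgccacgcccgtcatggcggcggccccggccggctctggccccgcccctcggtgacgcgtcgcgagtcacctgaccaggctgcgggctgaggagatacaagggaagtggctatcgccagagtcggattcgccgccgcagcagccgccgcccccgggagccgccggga
OPTN: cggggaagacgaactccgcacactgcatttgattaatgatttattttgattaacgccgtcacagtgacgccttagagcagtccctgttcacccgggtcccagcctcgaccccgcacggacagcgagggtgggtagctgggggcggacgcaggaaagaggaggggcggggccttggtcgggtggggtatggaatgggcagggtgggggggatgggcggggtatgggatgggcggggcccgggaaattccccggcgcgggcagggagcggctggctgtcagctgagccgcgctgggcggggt
In the ATG3 window 1 E-box starts 18 bases before the gene start and the other, inside the CLEAR core, just after it, while the MAP1LC3B and OPTN windows hold neither motif. A match is a description of letters and not evidence of binding.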

How the data were processed

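QuantSeq forward 3′ libraries (single reads) were made from total RNA of 24 samples. The authors aligned reads to hg38 with STAR and counted them per gene with featureCounts on GENCODE annotation; the deposited values are raw counts, whole numbers without normalisation. The strand setting is not given in the sources used here. Libraries held 2873558 to 4158762 counts; 1 unnamed line held 0 counts and was left out. Replicates are described as biological by the authors. The p-values weigh differences against the spread between replicate samples of a line, and not against the spread between lines or cancers. No pair of replicates was a copy (chi-square per degree of freedom 2.70 to 9.49 over 24 pairs).

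Counts were tested in R 4.3.3 with edgeR 4.0.16 (filterByExpr, TMM scaling, quasi-likelihood F-test, 2-sided, group means), within each line over its 12 libraries, and over all 24 for contrasts between lines. Benjamini-Hochberg adjustment ran over all 11314, 11080 or 12750 genes tested, with calls at an adjusted p below 0.05. The biological coefficient of variation was 13.4% (MDA-MB-231) and 12.6% (MDA-MB-453). CPM used TMM library sizes over 24 libraries. Folds against a group at 0 used a floor of 3 counts over the group; floors and intervals of counts cover counting error only. The test was checked on simulated data. Alternatives were DESeq2 1.42.0, its size factors in edgeR, library totals, removal of mitochondrial genes, no filter on low counts, only the groups compared, a replicate block, and leaving out each library. Replicate numbers did not pair samples: over 36 same-numbered pairs the correlation of deviations from group means was -0.09 to 0.03, and none exceeded 0.1.

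Values in every library are given for members called between abemaciclib and DMSO that averaged at least 10 CPM, up to 5 in each direction a line, for up to 3 in each direction of the contrasts between lines, and for any called with fulvestrant. Of 98 other autophagy genes, TFEB, TFE3 and up to 2 called genes in each direction at 10 CPM or more were named. RB1CC1, ATG12 and SQSTM1 values under other treatments, and the partner genes, were chosen after values were seen. The members and lists were chosen with earlier results of these data known. Overlaps between transcripts came from GENCODE v44 on GRCh38, and promoters from RefSeq.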

Additional observations from a re-analysis of the deposited data

Results flagged for a closer look

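The abemaciclib effect of 5 members differed between the lines in the test of the difference itself (edgeR, all 24 libraries; the MDA-MB-453 effect less the MDA-MB-231 effect, log2 scale). The difference was 1.25 for RB1CC1 (adjusted p = 0.00124), 0.77 for ATG3 (adjusted p = 0.0208), 0.81 for SQSTM1 (adjusted p = 3.41e-07), -2.13 for OPTN (adjusted p = 0.00389) and 0.49 for TAX1BP1 (adjusted p = 0.0352). RB1CC1 and SQSTM1 passed in all 19 alternative settings, OPTN in 18, ATG3 in 11 and TAX1BP1 in 6. ATG4B, which missed the threshold with a difference of -0.91 (adjusted p = 0.0676), passed in 9 of the 19. The lines also differ in medium, which cannot be told apart from the line. RB1CC1 rose in MDA-MB-453 against DMSO, but between combination and fulvestrant its log2 fold change there was -0.14 (adjusted p = 0.526). OPTN in MDA-MB-453 rests on 3 to 21 counts a library.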

How the results depend on the processing

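The called members were refitted in their comparisons under every alternative: 1037 of 1198 values kept the call, 161 lost it and 0 changed sign, while members not called passed in 46 other values, 9 of them for ATG4B in the difference of effects. Under leave-one-out, the number of members called between abemaciclib and DMSO ran from 7 to 13 in MDA-MB-231 (reported 13; 8 without DMSO replicate 1 and 7 without abemaciclib replicate 2) and from 5 to 8 in MDA-MB-453 (reported 8; 5 without DMSO replicate 3). Between combination and fulvestrant it ran from 4 to 10 in MDA-MB-453 (reported 8; 4 without fulvestrant replicate 2, 5 without combination replicate 2), and between combination and DMSO from 5 to 7 (reported 8; 5 without DMSO replicate 1 or 3). Between fulvestrant and DMSO in MDA-MB-453 it ran from 0 to 2, the 2 being RB1CC1 and ATG2A without fulvestrant replicate 3, and for the difference of effects from 3 to 6 (reported 5; 3 without DMSO replicate 1 or abemaciclib replicate 1 of MDA-MB-231). Without a filter on low counts, 5 members were called between combination and fulvestrant in MDA-MB-453 and 3 in the difference of effects; more genes then share the adjustment.

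Library totals in place of TMM gave 5 higher and 1 lower for combination against fulvestrant in MDA-MB-453 (reported 8 and 0). For the difference of effects, library totals and removal of mitochondrial genes each gave 3 higher and 2 lower (reported 4 and 1), and both moved the median of all genes, from -0.07 to -0.16 and -0.14. DESeq2 called 7 higher and 0 lower against DMSO in MDA-MB-453 for abemaciclib and for the combination. A replicate block, fitted although the numbers did not pair the samples, gave 12 called members between abemaciclib and DMSO in MDA-MB-231, 8 in MDA-MB-453, 18 between the lines under DMSO (reported 22), and 4 higher and 2 lower in the difference of effects.

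OPTN, MAP1LC3B, GABARAPL2, PIK3C3 and ATG3 in MDA-MB-231 and SQSTM1, BECN1, MAP1LC3B, NBR1 and TAX1BP1 in MDA-MB-453 kept their abemaciclib call in all 13 alternatives. Depth limited members under about 10 CPM, and 3 members could be tested in neither line.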

Other observations

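The 98 other genes of autophagy and its control, of which 87 (MDA-MB-231) and 91 (MDA-MB-453) were tested, were called mostly in the higher direction. Under abemaciclib against DMSO, 31 rose and 3 fell in MDA-MB-231 cells (39.1%, beside 33.7% of all genes, 16.9% higher and 16.9% lower). In MDA-MB-453 cells 25 rose and 10 fell (38.5%, beside 36.0%, 16.6% higher and 19.4% lower). For combination against fulvestrant, 30 went up and 4 down in MDA-MB-231 (39.1%), where all genes gave 36.1% (17.6% higher, 18.5% lower). For MDA-MB-453, 26 went up and 7 down (36.3%), where all genes gave 36.6% (17.2% higher, 19.4% lower). The median log2 fold change against DMSO was 0.28 for MDA-MB-231 cells and 0.13 for MDA-MB-453 cells. Of 15 genes for fusion with the lysosome, 6 rose and none fell in MDA-MB-231, while 5 rose and 3 fell in MDA-MB-453. Of genes for mTORC1, the kinase complex that restrains autophagy, and its inputs, 11 of 25 rose and 1 fell in MDA-MB-231. In MDA-MB-453, 7 of 26 rose and 4 fell. The inputs include activators such as RHEB and inhibitors such as DDIT4, so these counts give no direction for the complex.

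DDIT4, a stress-induced inhibitor of mTORC1, had 4.47, 6.06 and 3.54 CPM under DMSO and 20.7, 22.3 and 27.8 CPM with abemaciclib in MDA-MB-231. TP53INP2, a cofactor that binds ATG8 proteins, had 3.28, 8.66 and 3.25 CPM against 21.2, 21.7 and 26.4 CPM. Neither overlapped (log2 fold changes 2.32, adjusted p = 3.55e-08, and 2.18, adjusted p = 1.94e-07). In MDA-MB-453 the related TP53INP1, a p53 target, had 7.41, 10.3 and 7.82 CPM against 47.9, 31.0 and 38.5 CPM, and EPG5, a tether for fusion with the lysosome, had 4.75, 9.18 and 5.21 CPM against 16.3, 16.6 and 13.4 CPM. Both rose (log2 fold changes 2.19, adjusted p = 4.55e-11, and 1.26, adjusted p = 0.00131).

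Among lower genes, MLST8, an mTORC1 subunit, and RTN3, a receptor for turnover of the endoplasmic reticulum, fell in MDA-MB-231 by 0.56 and 0.34 on the log2 scale (adjusted p = 0.0357 and 0.0124). RHEB, the activator of mTORC1, fell by 0.95 (adjusted p = 0.00017) and TBC1D7, a subunit of the complex that inhibits RHEB, by 0.85 (adjusted p = 0.00265) in MDA-MB-453. TFEB was too low for a test in MDA-MB-231, at 0 to 1.77 CPM under DMSO and abemaciclib, and gave a log2 fold change of 0.26 (adjusted p = 0.723) in MDA-MB-453. TFE3, its relative, gave 0.49 (adjusted p = 0.10) and -0.21 (adjusted p = 0.437). MITF, of the same family and named after its values were seen, had 48.6, 47.3 and 51.3 CPM under DMSO and 66.2, 74.4 and 81.7 CPM with abemaciclib in MDA-MB-231, without overlap (log2 fold change 0.60, adjusted p = 0.00119), and gave 0.29 (adjusted p = 0.591) in MDA-MB-453. TFEC, the last of the family, was tested in neither line.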
